A study of Homo sapiens with 26 samples.

Results

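Cells of the human hepatocellular carcinoma line Huh7 were treated for 60 min with 0.3 μM PF-06446846 or with the DMSO vehicle, and the positions of their ribosomes were read by ribosome profiling (ribo-seq). The comparison holds 6 of the 26 libraries of the series, 3 at 0.3 μM and 3 of vehicle, chosen by their labels alone. The labels name no genetic change in the cells. Each replicate number was taken as a pair of 1 treated and 1 vehicle library. Libraries of 1.5 μM PF-06446846 at 60 min and of 0.3 μM and vehicle at 10 min are set beside these 6 below. A second, separately prepared study of 1.5 μM and vehicle at 60 min also set the boundary codons and the windows in which the 6 libraries were read, and most of the codons in capitals.

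PF-06446846 is a small molecule that binds the human ribosome and stops translation of a small set of proteins, mostly early in the chain, before it leaves the exit tunnel. A ribosome that stalls leaves a pile of footprints at one place in the coding sequence (CDS), and fewer ribosomes are then found 3′ to that place. In ribo-seq the pieces of mRNA that ribosomes shield from nuclease are sequenced, so a read marks the codon in the ribosomal P site. Cycloheximide, which halts elongation, was in the buffers used to harvest and lyse the cells. Stalling therefore has 2 readouts in these files, a rise of reads at the stall and a fall of reads 3′ to it.

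The 6 libraries held between 6414227 and 16370320 reads in coding sequences, the fewest in vehicle replicate 1. AFP and TF, secretory products of liver cells, averaged 135562 and 27880 CDS reads per library, and 7 of 8 hepatocyte markers were measurable. Of 8 markers of other cell types, 2 were measurable, the macrophage marker CD68 (655 reads per library) and the endothelial marker PECAM1 (238). Deviations from the group mean of libraries with the same replicate number correlated at 0.457, 0.454 and 0.598 over 8528 transcripts, so the number was kept as a block in each fit across transcripts. The p-values of fits with the block measure the spread between 3 such pairs, and those without it the spread between libraries.

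The coding sequences in which footprints gathered are shown for 7 genes, to place the codons at which reads are described below. Each is spliced coding sequence of GRCh38 with GENCODE v44 exons, 5′ to 3′ on the coding strand, from the start codon except for CDH1, which begins at codon 700. Capitals mark the codon whose share of reads rose most at 1.5 μM in the second study and, where another codon lies near it, the codon whose share of a library's reads rose most at 0.3 μM here.
RPL27: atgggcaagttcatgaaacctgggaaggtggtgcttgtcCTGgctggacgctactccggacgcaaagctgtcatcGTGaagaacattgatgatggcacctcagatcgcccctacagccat
HSD17B11: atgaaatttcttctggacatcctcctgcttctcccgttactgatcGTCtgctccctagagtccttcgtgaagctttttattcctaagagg
PCBP2: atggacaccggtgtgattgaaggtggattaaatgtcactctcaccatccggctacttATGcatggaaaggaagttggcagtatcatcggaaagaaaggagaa
PCBP1: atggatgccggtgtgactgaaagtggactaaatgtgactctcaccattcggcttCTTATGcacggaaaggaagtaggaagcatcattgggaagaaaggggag
MDK: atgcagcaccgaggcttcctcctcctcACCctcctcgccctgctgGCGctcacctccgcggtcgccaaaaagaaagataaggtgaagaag
BCAP31: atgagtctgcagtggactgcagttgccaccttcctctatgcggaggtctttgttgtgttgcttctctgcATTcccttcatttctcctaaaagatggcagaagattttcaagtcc
CDH1: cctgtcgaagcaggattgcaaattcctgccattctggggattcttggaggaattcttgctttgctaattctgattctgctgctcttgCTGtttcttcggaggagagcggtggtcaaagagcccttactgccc

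These stretches lie at chr17:42998751-42999971 (plus strand, 2 coding exons) for RPL27, chr4:87390981-87391070 (minus strand, 1 exon) for HSD17B11 and chr12:53454801-53455469 (plus strand, 3 exons) for PCBP2. PCBP1 lies at chr2:70087744-70087845 (plus strand, 1 exon), MDK at chr11:46382058-46382307 (plus strand, 2 exons) and BCAP31 at chrX:153720951-153723244 (minus strand, 2 exons). The CDH1 stretch lies at chr16:68823560-68828238 (plus strand, 2 exons). The capitals of RPL27 are codons 14 and 26, of HSD17B11 codon 16, of PCBP2 codon 20, of PCBP1 codons 19 and 20, of MDK codons 10 and 16, of BCAP31 codon 24 and of CDH1 codon 729. PCBP1 and PCBP2 share 86 of the 102 bases shown (84.3%), and reads that fit several transcripts equally well were kept at each, so their values are not fully separate.

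Ribosome footprints 3′ to a boundary codon fell in a small set of genes at 0.3 μM. Reads were counted after a boundary codon, which was the codon of the largest divergence between cumulative read distributions (Dmax) in the second study, or codon 50 for transcripts whose Dmax Z-score there was under 2. Of 10864 transcripts tested with edgeR, 6 passed a false discovery rate (FDR) of 0.1 (0.0552% of those tested), all lower, among them MDK, MST1, RPL27, LTBP3 and HSD17B11. Values are in CPM, the reads of a gene scaled to the total of 3′ reads of the library times its normalization factor (TMM).

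MDK encodes midkine, a secreted heparin-binding growth factor. It had 91.5, 128 and 124 CPM in replicates 1 to 3 at 0.3 μM and 164, 174 and 192 CPM in vehicle. Every treated library lay below every vehicle library. The log2 fold change was -0.64 (SE 0.0930, adjusted p = 0.0217, edgeR), which left 64.4% of the vehicle level (95% interval 56.1 to 73.9).

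MST1, which encodes the hepatocyte product macrophage-stimulating protein, had 16.9, 29.4 and 18.6 CPM at 0.3 μM and 40.5, 45.5 and 31.8 CPM in vehicle. The groups did not overlap, although treated replicate 2 came close to vehicle replicate 3. Its log2 fold change was -0.87 (SE 0.127, adjusted p = 0.0217, edgeR), 54.9% of vehicle (interval 45.5 to 66.3). MST1 has near-identical copies in the genome, so reads may be shared with them.

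LTBP3, a secreted protein that binds latent TGF-β in the extracellular matrix, had 17.8, 25.1 and 20.7 CPM at 0.3 μM against 28.8, 43.6 and 32.6 CPM in vehicle. All treated values were below all vehicle values, with the narrowest gap between treated replicate 2 and vehicle replicate 1. The log2 fold change was -0.72 (SE 0.110, adjusted p = 0.0217, edgeR), or 60.8% of vehicle (interval 51.6 to 71.5).

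RPL27, a protein of the large ribosomal subunit, had 758, 661 and 566 CPM at 0.3 μM and 1023, 921 and 928 CPM in vehicle. The groups were well apart, and the fall was widest in replicate 3. Its log2 fold change was -0.54 (SE 0.0824, adjusted p = 0.0217, edgeR), 68.7% of vehicle (interval 60.8 to 77.6).

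HSD17B11, a short-chain dehydrogenase of lipid droplets and the endoplasmic reticulum (ER), had 75.1, 72.3 and 52.9 CPM at 0.3 μM and 105, 99.4 and 81.6 CPM in vehicle. Treated values were again all below vehicle values. The log2 fold change was -0.52 (SE 0.0896, adjusted p = 0.0624, edgeR), 69.7% of vehicle (interval 61.0 to 79.5).

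**Figure D1:**
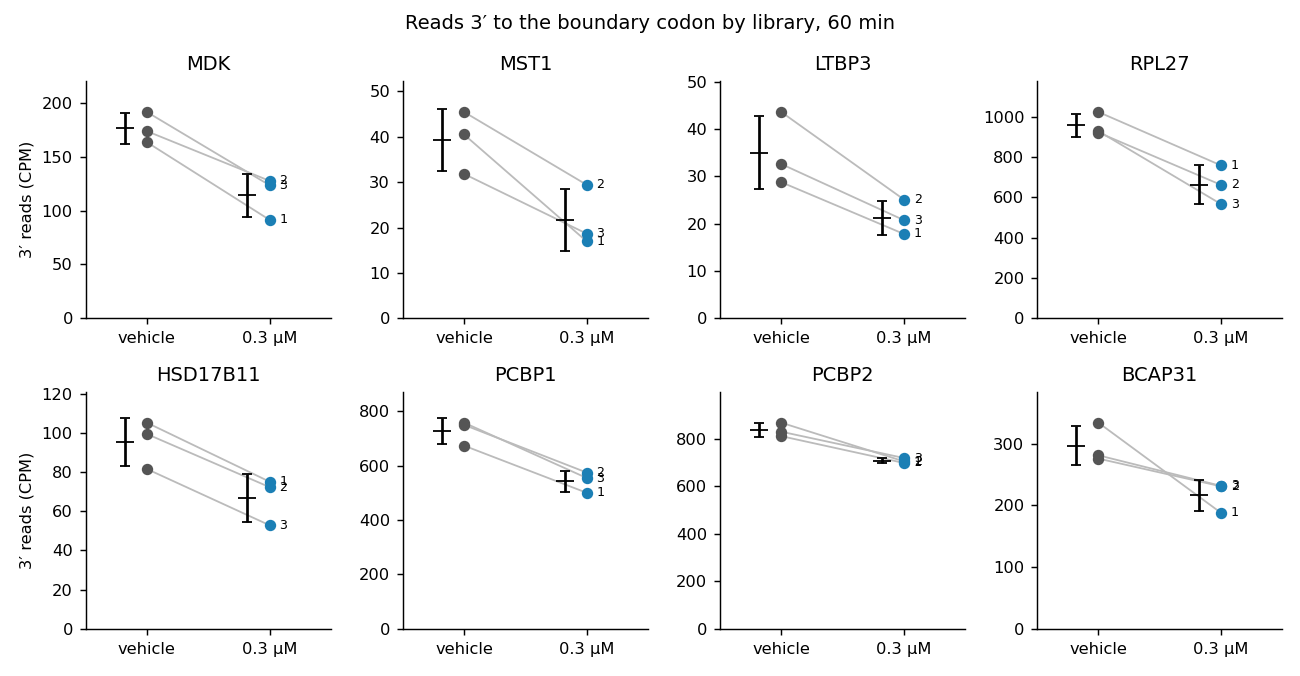
Reads 3′ to the boundary codon in CPM (y axes from 0) for 8 genes in vehicle and at 0.3 μM after 60 min. Dots are libraries, grey lines join the same replicate number (1 to 3), and the black bars give mean ± SD (n = 3 per group). In all 8 genes every treated library lies below every vehicle library.

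These calls rest on the pairing. Without the replicate block 0 transcripts passed (101 at an unadjusted p under 0.05, against 379 with it), while the DESeq2 Wald test with the block gave 7 (0.0644%). Leaving out treated or vehicle replicate 3 ended the calls of RPL27 (adjusted p = 0.472 and 0.413) and HSD17B11 (0.62 and 0.466, edgeR), and with codon 50 as the boundary HSD17B11 did not pass (adjusted p = 0.147, 5 transcripts called or 0.046%), whereas MDK, MST1 and LTBP3 passed without any single library. The number of calls moved with single libraries. It was 65 without vehicle replicate 2 (60 lower), 34 without treated replicate 2 (33 lower), 23 without vehicle replicate 1, the shallowest library (10 lower), and 10 without treated replicate 1 (7 lower), so calls of higher 3′ reads appeared there, while the 6 were among the calls in each of these 4 refits.

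The remaining genes described here come from the list of sensitive genes that the study drew up after 60 min, of which 21 are counted here. That list was chosen at 1.5 μM against these same vehicle libraries, so it is not independent evidence of a direction at 0.3 μM. All 21 had a log2 fold change below 0 in 3′ reads, from -0.87 to -0.22, beside 51.4% of all transcripts tested. Their median was -0.36 beside -0.0039 for all transcripts. In 19 of 21 the treated library was lower in 3 of 3 replicate pairs, which held for 12.1% of all transcripts, and in 15 of 21 the groups did not overlap (2.62% of all). Of the 21, 5 passed the FDR.

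PCBP1, an RNA-binding protein of the poly(C)-binding family, came next, with 500, 574 and 554 CPM at 0.3 μM and 673, 749 and 758 CPM in vehicle. It fell just short of the threshold (log2 fold change -0.42, SE 0.0770, adjusted p = 0.102, edgeR) and passed in the DESeq2 Wald test (adjusted p = 0.00407). PCBP2, its relative, had 698, 705 and 719 CPM against 811, 868 and 830 CPM. The PCBP2 groups were apart but the difference was smaller (-0.24, SE 0.0767) and did not pass (adjusted p = 0.998, edgeR).

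None of the other members passed the FDR. BCAP31, an ER membrane protein, had 188, 231 and 231 CPM at 0.3 μM and 334, 276 and 281 CPM in vehicle (log2 fold change -0.45, SE 0.106). EMC7, a subunit of the ER membrane complex, had 75.0, 76.8 and 75.2 CPM against 111, 87.7 and 94.4 CPM (-0.36, SE 0.0957). Both had separate groups.

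The adhesion protein CDH1 (E-cadherin) was the only member with a boundary near the end of its CDS, at codon 741 of 883. After that codon it had 24.4, 35.8 and 22.7 CPM at 0.3 μM and 42.8, 40.02 and 36.4 CPM in vehicle (-0.53, SE 0.127, adjusted p = 0.744, edgeR). With codon 50 as its boundary the difference was 0.027. The study, with nearly the same late boundary codon, lists a small rise for CDH1 at 0.3 μM. The cause of that disagreement was not tested.

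PLA2G15, a lysosomal phospholipase, had 6.80, 8.61 and 8.81 CPM at 0.3 μM against 11.02, 12.2 and 14.2 CPM (-0.62, SE 0.156, adjusted p = 0.991, edgeR). Its groups were separate. The lysosomal thiol reductase IFI30 (-0.22, SE 0.0940) had overlapping groups. The surface protein CD99 had 69.8, 79.3 and 90.0 CPM against 96.1, 91.6 and 110 CPM (-0.32, SE 0.0906), and the formylglycine-generating enzyme SUMF1 had 20.8, 23.2 and 23.8 CPM against 25.2, 27.1 and 33.3 CPM (-0.33, SE 0.116). Both had separate groups, unlike SUMF2 (-0.23, SE 0.107) and the sialomucin PODXL2 (-0.33, SE 0.0934). BRI3BP had 24.2, 26.8 and 27.9 CPM against 30.6, 35.6 and 34.5 CPM, with separate groups (-0.35, SE 0.107). The groups overlapped in DPCD (-0.33, SE 0.148) and in the Golgi tethering protein USO1 (-0.28, SE 0.0990). The chemokine receptor CCR1 had the fewest reads, 46 per library, and an interval that reached 100% of vehicle (48.3 to 100.3%).

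**Figure D2:**
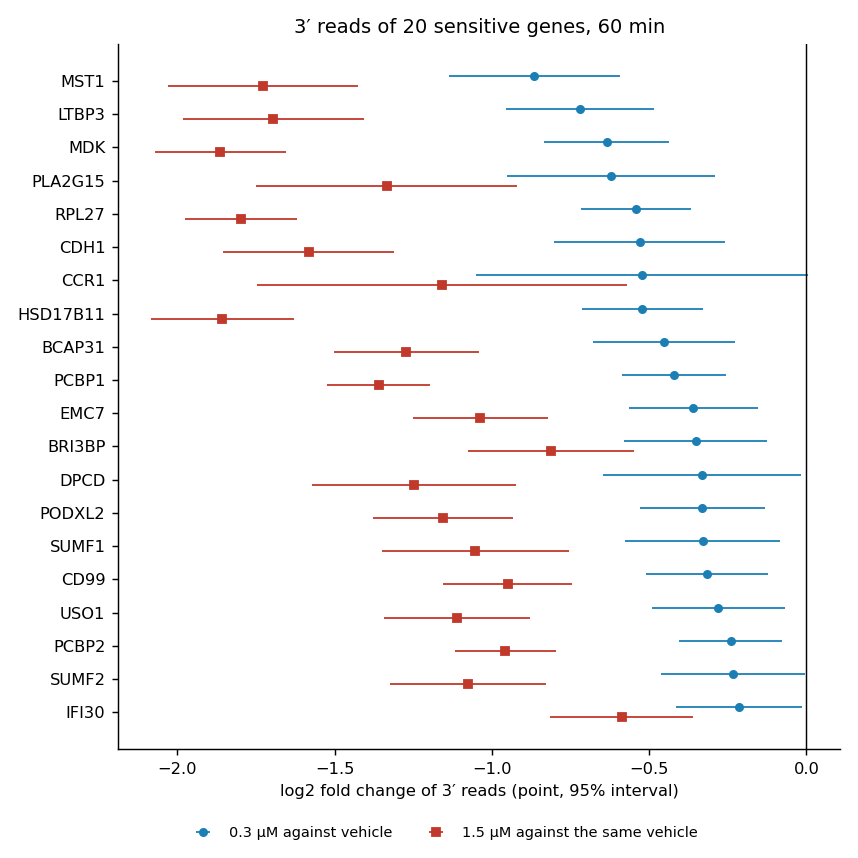
Log2 fold change of 3′ reads (x axis, point with 95% interval) for 20 of the sensitive genes (y axis), at 0.3 μM (circles) and at 1.5 μM (squares) against the same 3 vehicle libraries. All 20 points at 0.3 μM lie below 0, from -0.87 to -0.22, and each lies nearer to 0 than the point at 1.5 μM. The genes were listed for a fall at 1.5 μM in these same libraries, which favours both the sign and this order.

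**Figure D3:**
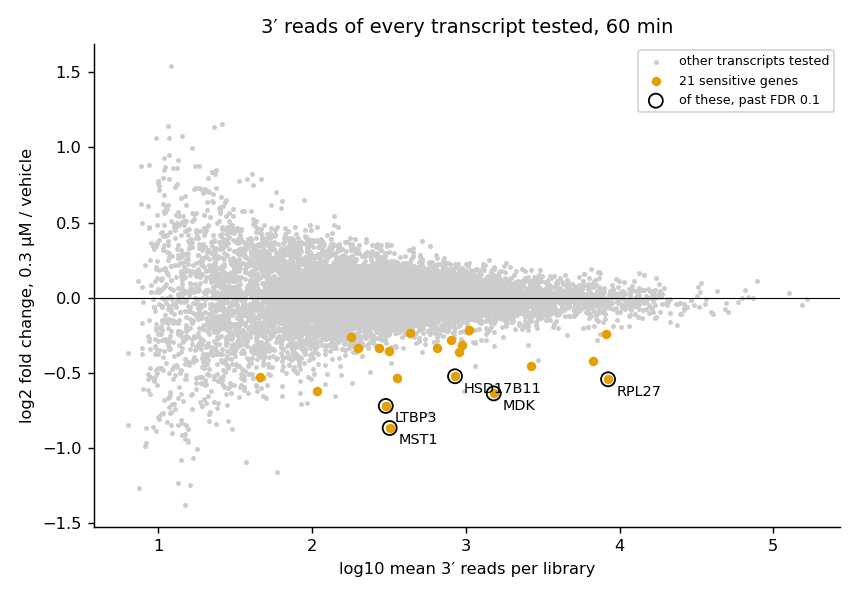
Log2 fold change of 3′ reads at 0.3 μM (y axis) against the log10 of the mean 3′ reads per library (x axis) for the 10864 transcripts tested. Orange dots are the 21 sensitive genes and circles mark the 5 of them past an FDR of 0.1, which lie between -0.52 and -0.87.

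Another list was drawn from the separate libraries of the second study. It held the 34 transcripts with a Dmax Z-score of at least 2 and fewer 3′ reads at 1.5 μM (edgeR, FDR 0.1), was made after these data had been seen, and shared 20 genes with the list above (95.2% of that list and 58.8% of this one). Of the 14 found only there, 12 had a log2 fold change below 0 at 0.3 μM, beside the 51.4% of all transcripts, and the median was -0.19 beside -0.0039. Of these 14, 7 were lower in 3 of 3 pairs (12.1% of all) and 1 passed the FDR. The sorting receptor SORCS2 (-0.65, SE 0.151, adjusted p = 0.744, edgeR) had the largest difference of those named here, and the matrix protein TGFBI (-0.32, SE 0.0949) and the small GTPase ARF1 (-0.28, SE 0.0932) followed, none of them past the FDR.

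Reads up to the boundary took a larger part of the CDS at 0.3 μM in most of the 21 genes. This share is tied by arithmetic to the 3′ reads and is given as a description. In 15 of the 21 genes the share of CDS reads up to the boundary was higher in all 3 treated libraries than in any vehicle library, which held for 4.26% of all transcripts tested. In RPL27 the share up to codon 30 was 35.4%, 50.0% and 56.9% at 0.3 μM and 20.98%, 28.6% and 24.3% in vehicle. Replicate 1 was the lowest of its group in both conditions.

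In HSD17B11 the share up to codon 36 was 25.7%, 21.7% and 31.8% against 14.8%, 11.7% and 12.9%. In MDK, up to codon 34, it was 21.8%, 17.7% and 18.6% against 11.004%, 7.59% and 9.15%. In MST1, up to codon 41, it was 12.6%, 8.48% and 7.31% against 2.56%, 1.50% and 1.43%. None of these groups overlapped. DPCD, by contrast, had 24.1%, 27.9% and 21.8% up to codon 42 against 28.6%, 19.8% and 22.6%, with overlapping groups.

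Reads rose around marked codons in RPL27 and HSD17B11. A window of 5 codons around each codon marked by the second study was tested in 3480 transcripts, and these 2 rose past the FDR (0.0575%). A marked codon need not be the stall codon of the study, which lists other main stall codons for RPL27, MDK and MST1, among others. The DESeq2 Wald test gave 3 (0.0862%). Windows of 14 of the 21 genes had enough reads. A window could pass that filter on its treated libraries alone, so how many of the 14 were higher is not used.

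Around codon 14 of RPL27, the first capitals in its sequence above, the window held 42.1, 116 and 114 CPM at 0.3 μM and 7.59, 30.04 and 21.6 CPM in vehicle. Every treated library was above every vehicle library, with treated replicate 1 far below the other two. The rise was 2.26 on the log2 scale (SE 0.317, adjusted p = 6.14e-05, edgeR). Around codon 16 of HSD17B11 the values were 13.2, 10.1 and 15.3 CPM against 4.40, 3.71 and 3.80 CPM, a rise of 1.68 (SE 0.355, adjusted p = 0.0586, edgeR) with groups far apart.

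Neither window call held without the block or when replicate 2 or 3 of either group was left out. Without the block both had an adjusted p = 0.706, and with a library left out RPL27 had 0.17 to 0.9995 and HSD17B11 0.997 to 0.9996 (edgeR), with log2 values of at least 1.50.

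No other member passed. The next lowest p among the 14 were those of PCBP2, CDH1 and MDK. PCBP2 around codon 20 had 44.5, 42.3 and 64.0 CPM against 21.7, 18.5 and 18.3 CPM (log2 fold change 1.34, SE 0.321, adjusted p = 0.192, edgeR). Over the other settings and libraries left out its adjusted p ran from 6.86e-05 to 0.9996, with 0.0067 for a window of 1 codon and 0.999 for 11 codons (edgeR), and codon 20 in the test of all single codons had an adjusted p = 0.678. CDH1 around codon 729 had 3.70, 3.99 and 3.48 CPM against 1.67, 0.992 and 1.60 CPM (1.43, SE 0.421). MDK around codon 16 had 4.47, 3.99 and 4.19 CPM against 1.21, 1.59 and 2.20 CPM (1.33, SE 0.406). In each of these 3 the groups were separate, a trait whose share over all windows was not counted. DPCD went the other way, with 0.907, 0.920 and 1.19 CPM against 1.06, 1.12 and 1.70 CPM (-0.35, SE 0.488), lower in 3 of 3 pairs.

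Reads at single codons showed where footprints gathered. Of 189418 codons tested, 0 passed the FDR with edgeR (0.0%), while 2037 had an unadjusted p under 0.05 (0 and 1415 without the block). Leaving out replicate 1 of vehicle or of 0.3 μM gave 120 calls (28 higher) and 114 (26 higher), and leaving out vehicle replicate 2 gave 1. Among the 20 codons with the lowest p, 13 lay in the 21 genes, which hold 0.484% of the codons tested. A codon could reach the minimum of reads on its treated libraries alone, so this is a description. Codons of 1 transcript share its ribosomes and are not independent.

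Codon 14 of RPL27 held 9.73, 53.2 and 52.1 RPM (reads scaled to the CDS reads of the library) at 0.3 μM and 3.12, 5.09 and 4.26 in vehicle. By group mean the tallest pile of its first 60 codons stood on codon 23 in both groups, with 66.0, 67.5 and 142 RPM against 31.6, 42.7 and 35.9. Its codon 26, which the study lists as the main stall codon of RPL27, held 74.0, 104 and 93.8 against 31.0, 28.4 and 23.7. Codon 15 had 25.7, 42.3 and 44.6 RPM against 3.43, 15.5 and 10.9, and in treated replicate 1 it held more reads than codon 14.

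Codon 16 of HSD17B11 had 9.44, 7.33 and 11.8 RPM at 0.3 μM and 0.156, 1.29 and 1.69 in vehicle. In PCBP2, codon 20 had 16.3, 14.4 and 25.8 against 2.81, 3.61 and 3.47, and a second pile on codon 32 had 14.9, 12.8 and 10.3 against 4.05, 1.095 and 2.38. In BCAP31, codon 24 had 2.88, 3.18 and 3.80 against 0.156, 0.322 and 1.19. Codon 729 of CDH1 had 1.73, 1.89 and 1.39 against 0.468, 0.129 and 0.198. All of these codons had separate groups, and their piles can be read from the plot of footprints per codon. The share of all codons tested that had separate groups was not counted.

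In MDK the groups overlapped at both codons in capitals. Codon 10 had 0.937, 1.65 and 4.88 RPM at 0.3 μM against 1.40, 1.29 and 0.991, a rise carried by replicate 3. Codon 16 had 1.153, 0.916 and 0.155 against 0.312, 0 and 0.0991. Some other MDK codons, picked after their values were seen, had separate groups. Codon 14 had 2.23, 1.83 and 2.01 RPM against 0.624, 0.838 and 0.991, and codon 20 had 1.95, 1.04 and 1.32 against 0.156, 0.387 and 0.694.

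LTBP3 had 0, 1 and 1 reads at its marked codon 36 against 1, 1 and 0, although its 3′ reads fell. MST1 had 3, 3 and 2 reads at codon 28 and 0 in each vehicle library, too few to describe a pile.

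**Figure D4:**
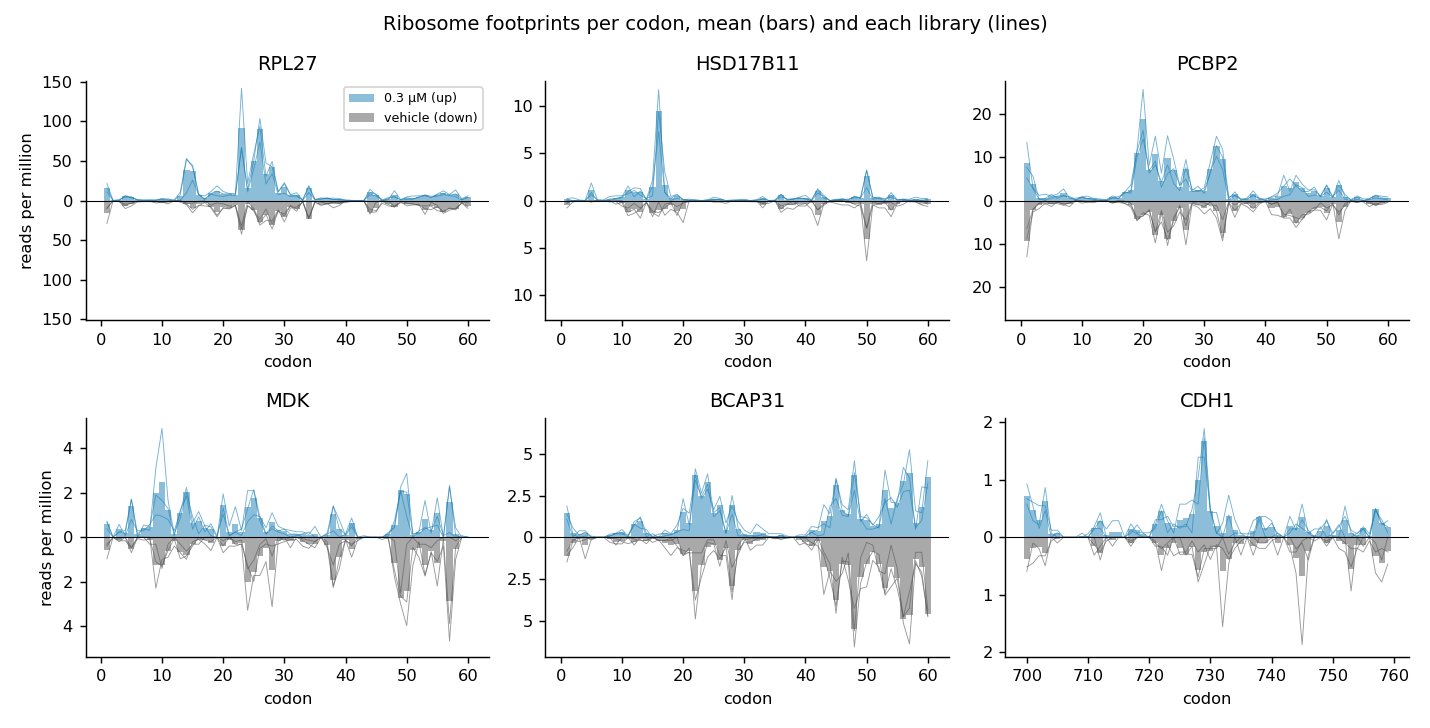
Reads scaled to the CDS reads of the library (y axis, RPM) by codon (x axis) in 6 genes, 0.3 μM upwards and vehicle downwards. Bars are group means and lines single libraries (n = 3 per group). RPL27 shows piles at codons 14, 23 and 26, HSD17B11 at codon 16, PCBP2 at codons 20 and 32, and CDH1 at codon 729.

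The center of density, the mean position of a transcript's reads as a fraction of its CDS, moved toward the start past the FDR in 1 transcript of 9934 (0.0101%). Without that threshold it lay nearer the start at 0.3 μM in 58.7% of transcripts, and in 3 of 3 pairs in 14.7% against 7.33% nearer the end. At an unadjusted p under 0.05 (limma) 216 lay nearer the start and 79 nearer the end. These counts include the codon before the stop codon, where mean density was 9.73 at 0.3 μM and 11.3 in vehicle, with overlapping groups. Over codons 2 to 50 it was 0.689 and 0.695. Whether the reads near the stop codon moved the center was not tested. In RPL27 the center of density was 0.484, 0.405 and 0.371 at 0.3 μM and 0.585, 0.499 and 0.534 in vehicle. It decreased by 0.12 of the CDS (SE 0.0125, adjusted p = 0.00106, limma), and the groups did not overlap. PCBP2 (-0.055, SE 0.0101, adjusted p = 0.34) and MDK (-0.063, SE 0.0124, adjusted p = 0.451) came next and did not pass in limma. Without the replicate block RPL27 did not pass (adjusted p = 0.9999, limma).

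Over the whole CDS no transcript of 11141 passed in edgeR (0.0%), with 371 at an unadjusted p under 0.05. The DESeq2 Wald test called 3, all lower, among them MST1 and MDK. MST1 had 16.7, 27.5 and 17.3 CPM at 0.3 μM and 35.5, 39.8 and 27.9 CPM in vehicle (log2 fold change -0.75, SE 0.119, adjusted p = 0.103, edgeR). LTBP3 (-0.66, SE 0.104, adjusted p = 0.103) and MDK (-0.47, SE 0.0887, adjusted p = 0.436) followed in edgeR. Of the 21 sensitive genes 20 were below 0 over the whole CDS (51.2% of all), with a median of -0.28.

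The transcripts with the lowest p among those higher were LMO4, a LIM-domain transcription cofactor (0.37, SE 0.0969), GNAQ, a G protein subunit (0.36, SE 0.103), and IER3IP1, an ER and Golgi protein (0.33, SE 0.104), each with an adjusted p = 0.9996 in edgeR. RPL27 stood at 1012, 1131 and 1131 CPM against 1107, 1112 and 1060 CPM over its whole CDS, a log2 fold change of -0.0036 (95% interval -0.17 to 0.16), although its 3′ reads fell and the reads around codon 14 rose. CDH1 stood at 0.025 over the whole CDS (interval -0.16 to 0.21).

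In 8 lists of other genes no member passed the FDR, in whole CDS or 3′ reads. Over all transcripts 0.0% and 0.0552% passed, so a count of 0 does not set any of these lists apart. The medians and gene values of these lists are log2 fold changes in 3′ reads. Of 20 genes of cholesterol synthesis 0 passed (median 0.0127), with the enzymes HMGCS1 at 0.025 (SE 0.0792) and EBP at -0.017 (SE 0.0789).

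Of 18 measurable genes of the integrated stress response 0 passed (median 0.0156). PHGDH and PSAT1, enzymes of serine synthesis, stood at -0.087 (SE 0.0777) and 0.0027 (SE 0.0798), and the amino acid carrier SLC7A5 at 0.10 (SE 0.0893). The ER chaperones had 0 of 18 (median -0.047), with the lectin chaperone CALR at -0.10 (SE 0.0907), HSP90B1 at -0.047 (SE 0.0745) and HSPA5 (BiP) at -0.066 (SE 0.0743). ER translocation had 0 of 22 (median -0.044), with SEC61A1, the channel subunit, at 0.035 (SE 0.0837), SSR2 at 0.072 (SE 0.0858) and SEC61G at -0.21 (SE 0.105). Over the whole CDS SEC61G stood at -0.060 (SE 0.0805).

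Factors of ribosome rescue had 0 of 18 (median -0.0037), among them RACK1 at 0.025 (SE 0.0794), VCP at -0.038 (SE 0.0758) and EDF1 at -0.064 (SE 0.0978). Immediate early genes had 0 of 16 (median -0.046), with 3 lower and 1 higher at an unadjusted p under 0.05, beside 2.01% and 1.48% of all transcripts. The 16 ran from -0.33 to 0.23. Secreted plasma proteins had 0 of 18 (median -0.014), with AFP at 0.035 (SE 0.0799) and TF at -0.067 (SE 0.0735). The 42 other proteins of the large ribosomal subunit had 0 (median 0.0206), with RPL4 at 0.042 (SE 0.0775), RPL7A at 0.025 (SE 0.0766) and RPL3 at 0.048 (SE 0.0763), beside the fall of RPL27. For transcripts of at least 50 reads the 95% interval of a log2 fold change in 3′ reads reached 0.24 to either side at the median. Changes much smaller than that were not detectable here. That interval is not adjusted for the number of transcripts tested, so larger changes could also miss the FDR. Those of PCBP1, BCAP31 and PLA2G15 did so above.

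The higher dose lowered the same readout further. Between 1.5 and 0.3 μM at 60 min, 49 of 10852 transcripts (0.452%) differed, 41 lower in 3′ reads at 1.5 μM and 8 higher (0.378% and 0.0737%, edgeR), and 19 of the 21 genes were among the lower ones. The list was chosen on these 1.5 μM libraries. RPL27 differed by -1.26 (SE 0.0651, adjusted p = 1.07e-09), MDK by -1.22 (SE 0.0722, adjusted p = 5.79e-09) and HSD17B11 by -1.34 (SE 0.0827, adjusted p = 7.83e-09). MST1 differed by -0.83 (SE 0.117, adjusted p = 0.000712) and LTBP3 by -0.996 (SE 0.122, adjusted p = 0.000122, edgeR).

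Side by side against the shared vehicle, 3′ reads of MDK stood at 64.4% of vehicle at 0.3 μM and 27.5% at 1.5 μM. RPL27 stood at 68.7% and 28.8%, HSD17B11 at 69.7% and 27.6%, MST1 at 54.9% and 30.2%, and LTBP3 at 60.8% and 30.9%. Without the block the comparison of doses called 4 transcripts (0.0369%) in place of 49.

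At 10 min, in 6 other libraries, 0.3 μM lowered no transcript past the FDR (0 of 10849, 0.0%, with 160 at an unadjusted p under 0.05, edgeR). MDK had 102, 97.9 and 124 CPM in 3′ reads against 153, 220 and 222 CPM in vehicle (log2 fold change -0.87, SE 0.122, adjusted p = 0.137), and HSD17B11 had 64.9, 79.3 and 69.5 CPM against 114, 137 and 102 CPM (-0.72, SE 0.107, adjusted p = 0.137, edgeR). Both had separate groups, a trait whose share over all transcripts was not counted at 10 min. Of the 21 genes, 20 were below 0 at 10 min, beside 5334 of the 10849 transcripts, and 16 were lower in 3 of 3 pairs, beside 9.63% of all transcripts.

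The effect at 60 min was tested against that at 10 min in 1 model, and 0 of 11010 transcripts differed (0.0%, 351 at an unadjusted p under 0.05, edgeR). For all 21 genes the 95% interval of that difference held 0, and its half-width was 0.37 at the median. MDK differed by 0.24 (interval -0.11 to 0.59), RPL27 by 0.18 (-0.17 to 0.53) and MST1 by -0.088 (-0.54 to 0.36).

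Averaged over 8173 transcripts, the distribution of ribosomes along coding sequences overlapped between the groups. The mean density over codons 2 to 50, relative to the transcript's own mean, was 0.679, 0.711 and 0.678 at 0.3 μM and 0.748, 0.663 and 0.673 in vehicle (two-sided exact permutation p = 1), with differences within pairs of -0.069, 0.048 and 0.0046. The density on the codon before the stop codon was 8.53, 10.7 and 9.97 against 14.02, 9.26 and 10.6 (exact permutation p = 0.5), with pair differences of -5.50, 1.44 and -0.639. On codons 10 to 12 before the stop codon it was 1.09, 1.14 and 1.13 against 1.12, 1.17 and 1.29 (exact permutation p = 0.3), lower in 3 of 3 pairs by values from -0.164 to -0.032. With the median over transcripts in place of the mean the difference turned, to 0.149 (exact permutation p = 0.6). With 3 libraries against 3 the smallest p this test can give is 0.1. Vehicle replicate 1 stood apart, with the highest density both near the start and before the stop codon.

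**Figure D5:**
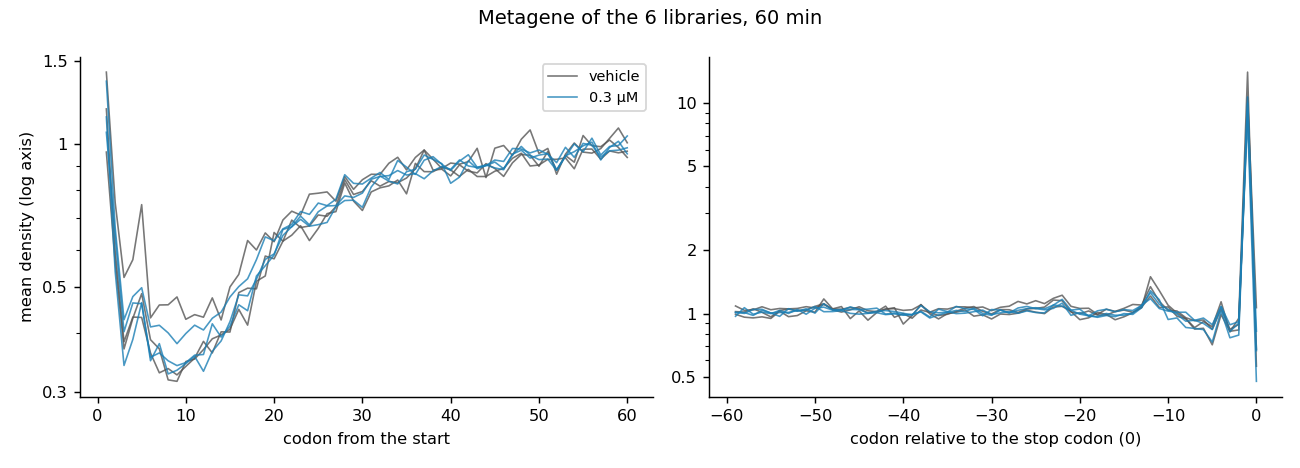
Mean footprint density relative to each transcript's own mean (y axis, log scale) over the first 60 and the last 60 codons (x axis), for 8173 transcripts in 3 libraries at 0.3 μM and 3 of vehicle. The lines of both groups overlap, and vehicle replicate 1 lies above the others from codon 2 to 12.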

How the data were processed

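Ribo-seq and mRNA-seq libraries of Huh7 cells make up the series, and 22 ribo-seq tables were read. Per the labels and the paper's methods, the authors removed adapters, discarded rRNA reads, aligned the rest with Bowtie 1.1.2 to 1 isoform per gene chosen with kallisto 0.42.5 (GRCh38, Ensembl 78), kept reads with few equally good sites, and deposited counts per codon by inferred P site, not normalized. The deposited counts covered 12325 transcripts, 11270 of them named from GENCODE v44, 228 from a gene table of the study and 827 unnamed.

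Counts were summed over the CDS, after a boundary codon, in windows and at single codons, and tested with edgeR 4.0.16 (filterByExpr, TMM, quasi-likelihood F test, replicate number as a block, Benjamini-Hochberg adjustment, FDR 0.1) in R 4.3.3. Windows and codons used library sizes of the whole CDS. A peak could lie from codon 3 up to 15 codons before the end, with 50 pooled reads in each group. Single codons needed a mean of 10 reads. Center of density was tested with limma 3.58.1 on transcripts with 20 reads in each library. Standard errors are the log2 fold change over the square root of F. Averages over transcripts took those of at least 200 codons and 20 reads, with exact permutation tests. The paper describes the replicates as biological, and the labels give only their numbers, no shared culture or day. The pairing was checked by correlating deviations of same-numbered libraries, with 0.457, 0.454 and 0.598 at 60 min and 0.217, 0.153 and 0.583 at 10 min. Libraries with different numbers gave -0.384 to -0.0954 at 60 min and -0.376 to 0.143 at 10 min. Deviations from a group mean cancel out within the group, so positive same-number values push the different-number values down on average. The different-number values are therefore no separate evidence of pairing. The pairs were less distinct at 10 min, where treated replicate 1 with vehicle replicate 2 gave the 0.143. Replicate libraries differed by 15.7 to 40.6 in chi-square per transcript, so none was a second deposit of another. The edgeR and limma steps were tested on simulated data. Counting error was not separated from amplification.

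Named were the genes of the study's list of sensitive genes, transcripts past the FDR with 50 reads on average and 1 direction in 3 of 3 pairs (otherwise the 3 with the lowest p each way), and up to 5 list members past the FDR or the 3 with most reads. The single codons, SORCS2, TGFBI and ARF1 were named after their values were seen. The members and lists were chosen with earlier results of these data known. Some genes these rules name are not reported here. Alternatives were no block, DESeq2 1.42.0, its size factors, no filter, an FDR of 0.05, 9 libraries in 1 fit, other codons or windows, and leaving out each library.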

Additional observations from a re-analysis of the deposited data

How the results depend on the processing

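The median standard error of a log2 fold change was 0.445 in windows, 0.123 in 3′ reads and 0.115 in the whole CDS. Without the replicate block the calls fell from 6 to 0 in 3′ reads (0 also with codon 50), from 2 to 0 in windows, from 1 to 0 in center of density, from 49 to 4 between doses and from 60 to 23 at 1.5 μM against vehicle. No call in the whole CDS, single codons, 10-min or time comparison was made with or without it. The whole CDS rose from 0 calls to 3 without a filter, 4 with all 9 libraries, 3 with DESeq2 and 3 without the last 15 codons. Windows gave 5 without a filter, 7 with 9 libraries, 8 with 1 codon, 0 with 11 codons and 1 at an FDR of 0.05. Leaving out each library gave 0 to 21 calls in the whole CDS, 5 to 65 in 3′ reads, 0 to 14 in windows, 0 to 120 at single codons and 1 to 13 in center of density. The most 3′ calls, 65, came without vehicle replicate 2, and the most codon calls, 120 and 114, without replicate 1 of vehicle and of 0.3 μM. In these refits 2 pairs carry the spread, and the cause was not tested. CDH1 reversed to 0.027 with codon 50, 0.031 with a boundary from the compared libraries and 0.014 with codon 50 and no block. The mean density over codons 2 to 50 (main difference -0.0056) was 0.0051 as a median and 0.0031 over pooled reads, and -0.022 to 0.021 without single libraries. Over codons 10 to 12 before the stop codon (-0.078) the median gave 0.149, and leaving out libraries gave -0.116 to -0.029. Before the stop codon, leaving out libraries gave -2.59 to -0.203.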

Other observations

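The count at codon 16 of HSD17B11 and at codon 19 of PCBP1 was the same in each of the 3 libraries at 0.3 μM (131, 120 and 152 reads), while vehicle had 1, 20 and 17 reads in HSD17B11 and 33, 59 and 40 in PCBP1.

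Of the 21 sensitive genes, 16 had the codon marked in the second study within codons 1 to 50, against 16.8% of the 10478 transcripts with a marked codon. The exceptions were CCR1 (codon 59), SUMF2 (69), IFI30 (81), USO1 (277) and CDH1 (729). USO1, a Golgi tethering protein, had 32.5%, 33.0% and 39.4% of its reads up to codon 314 at 0.3 μM and 26.8%, 26.4% and 31.5% in vehicle, groups that were separate.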
